A study of Saccharomyces cerevisiae with 24 samples.

Results

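Lysine synthesis in budding yeast was followed through 8 of its genes and through RTC2 and CTP1, a pair of transporter genes whose RNA varied with them across the arrays. These 10 genes, each read by 1 probe set of its own, were described out of 5449 genes measured. They were chosen by their levels in htz1Δ against wild type, the 8 lysine genes as a pathway and RTC2 and CTP1 also for their likeness to it over the arrays. The htz1Δ values are therefore descriptions and carry no test.

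Each of 8 strains was grown as 3 independent cultures, at 30 °C to mid-log phase in supplemented minimal medium, and the RNA of each culture was hybridised to an Affymetrix yeast array of its own, 24 in all. The mutants were htz1Δswr1Δ, htz1Δswc2Δ, htz1Δswc5Δ, htz1Δ, swr1Δ, swc2Δ and swc5Δ, and the wild type was BY4741. All shared the BY4741 background (MATa, his3Δ1 leu2Δ0 ura3Δ0 met15Δ0). Further markers differ between strains, since htz1Δ also lacks BAR1 and htz1Δswc5Δ also carries lys2Δ0, so that LYS2 itself is missing there. The labels give the 3 swr1Δ cultures different strain numbers, and they were taken as 1 strain. The comparisons ask what the SWR1 complex does to transcription when its substrate histone is missing.

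HTZ1 encodes the histone variant H2A.Z, and the SWR1 complex, with Swr1 as its ATPase and Swc2 and Swc5 among its subunits, puts H2A.Z into nucleosomes in place of H2A. Yeast makes lysine through the alpha-aminoadipate pathway. Homocitrate synthase, made from LYS20 and LYS21, joins 2-oxoglutarate to an acetyl group and is inhibited by lysine. LYS4 encodes homoaconitase and LYS12 homoisocitrate dehydrogenase. LYS2 encodes aminoadipate reductase, which the product of LYS5 activates, and LYS9 and LYS1 encode the saccharopine dehydrogenases that end the pathway. Lys14 is the activator of these genes that responds to the pathway intermediate aminoadipate semialdehyde, and Gcn4 activates them under general amino acid starvation. RTC2 encodes a vacuolar membrane protein of the family that carries basic amino acids, and CTP1 the mitochondrial citrate carrier.

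Values are log2 levels, on which 1 unit is a 2-fold difference, and levels of different genes are not compared. The arrays of swr1Δ, swc2Δ and swc5Δ lay at other medians, 9.29 to 9.30, 10.06 to 10.10 and 9.97 to 9.99, against 9.71 to 9.77 for the other 5 strains, and were brought to the common level by rank. Each deleted gene lay far below its level in intact strains in every culture labelled as lacking it. HTZ1 lay at 2.61 to 3.27 in its 12 deleted cultures against 10.13 to 11.53 in the others, and SWC5 at 2.32 to 2.99 in its 6 against 7.59 to 8.28. SWC2 (VPS72) was the least low, at 3.72 to 4.66 in its 6 deleted cultures against 8.99 to 9.40, where 95% of the probe sets for another species or several genes lay under 3.85. The MATa pheromone receptor gene STE2 lay at 12.85 to 13.30 in all 24 arrays and the MATalpha pheromone gene MF(ALPHA)1 at 3.63 to 5.46. A single swc5Δ culture stood apart from its strain, and its values are given apart from those of the others.

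The 10 genes showed 1 pattern. They were high in htz1Δ, unevenly among its cultures, and as high in swc5Δ culture 1, and elsewhere most stayed near wild type, RTC2 being lower there in every other mutant. The median over the 10 genes lay above the wild-type mean by 0.44 in htz1Δ culture 1, 1.53 in culture 2, 2.36 in culture 3 and 2.29 in swc5Δ culture 1. In the other 17 mutant cultures it lay between -0.15 and 0.19.

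**Figure D1:**
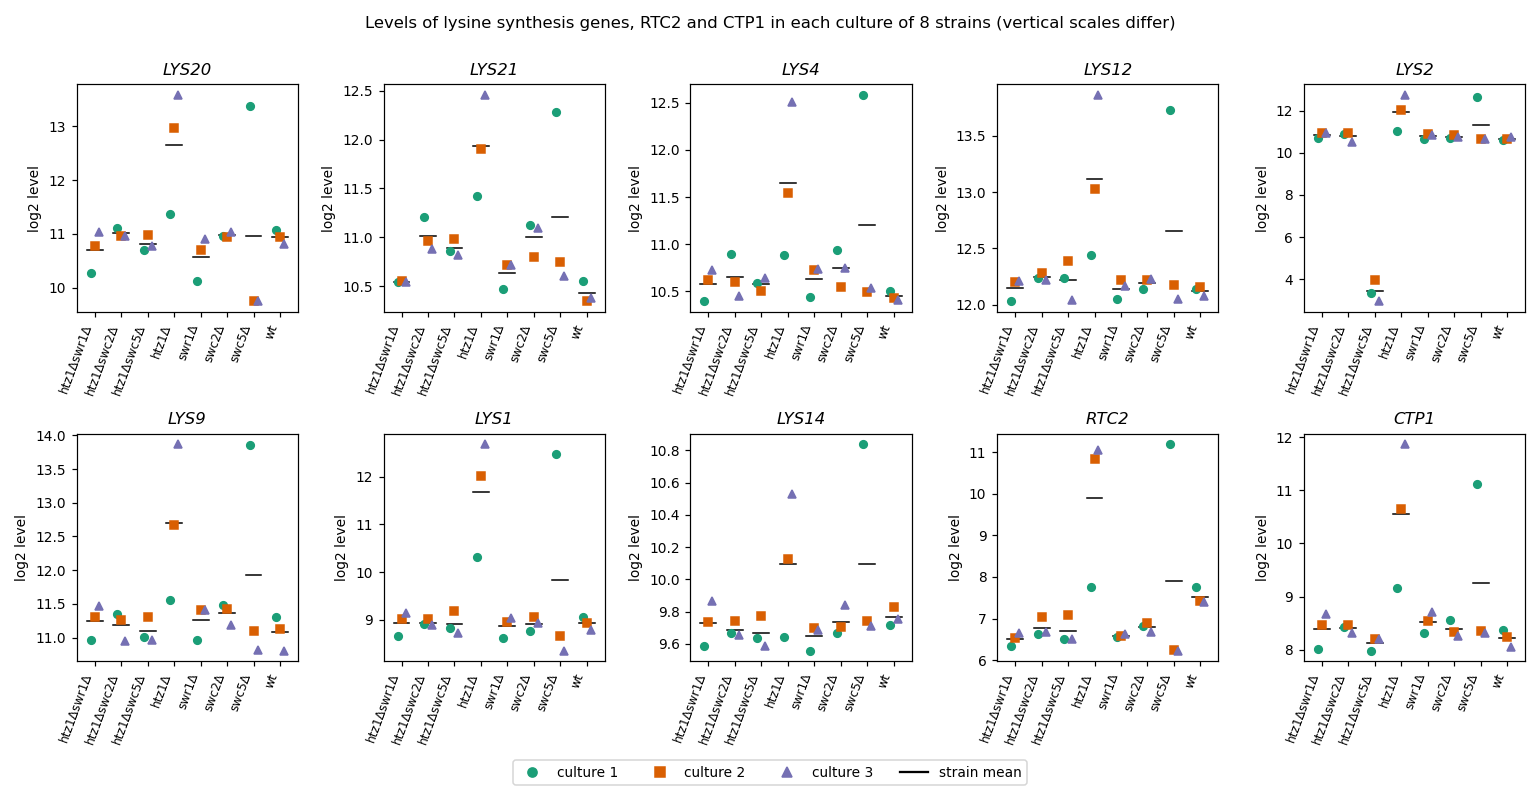
Log2 level of each gene (vertical axes, which differ between panels) in each of the 3 cultures of every strain (points, by culture number), with the strain mean as a line. In all 10 panels the high points are htz1Δ cultures 2 and 3 and swc5Δ culture 1, and LYS2 lies at 2.95 to 3.94 in htz1Δswc5Δ, where it is deleted.

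The first step of the pathway had both its genes higher in htz1Δ. LYS20 lay at 11.37, 12.97 and 13.59 in the htz1Δ cultures, against 11.08, 10.95 and 10.80 in wild type, a mean difference of 1.70 on the log2 scale (SE 0.66). LYS21 lay at 11.43, 11.90 and 12.46 in htz1Δ against 10.56, 10.34 and 10.38 in wild type, 2.83-fold higher in htz1Δ (SE 0.30 on the log2 scale). For neither gene did the strains overlap.

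The mean differences of the middle steps were nearer to 2-fold. LYS4, the homoaconitase gene, lay at 10.89, 11.54 and 12.51 in htz1Δ and at 10.50, 10.42 and 10.41 in wild type, 2.30-fold higher in htz1Δ (SE 0.40 on the log2 scale). LYS12, for homoisocitrate dehydrogenase, lay at 12.45, 13.03 and 13.86 in htz1Δ and at 12.14, 12.16 and 12.08 in wild type, a difference of 0.99 (SE 0.32), just short of 2-fold. LYS2, for aminoadipate reductase, lay at 11.01, 12.03 and 12.76 in htz1Δ and at 10.61, 10.67 and 10.73 in wild type, a difference of 1.26 (SE 0.42). All 9 htz1Δ values of these 3 genes exceeded all wild-type values of the same gene.

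The last steps held the largest difference of the pathway. LYS1, whose enzyme releases lysine from saccharopine, lay at 10.32, 12.02 and 12.69 in htz1Δ against 9.06, 8.93 and 8.77 in wild type, which is 2.75 higher (SE 0.71), or 6.74-fold. LYS9, the gene of the step before it, lay at 11.55, 12.66 and 13.87 in htz1Δ against 11.31, 11.13 and 10.81 in wild type, which is 1.61 higher (SE 0.56).

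The gene of the activator moved least. LYS14 lay at 9.64, 10.12 and 10.53 in htz1Δ and at 9.72, 9.83 and 9.75 in wild type, a difference of 0.33 (SE 0.22), and its strains overlapped because htz1Δ culture 1 was below every wild-type culture. Both transporter genes came next after LYS1 in the size of their difference. RTC2 lay at 7.77, 10.84 and 11.06 in htz1Δ against 7.75, 7.41 and 7.40 in wild type, 2.37 higher (SE 0.92), with culture 1 just above the highest wild-type culture. CTP1 lay at 9.15, 10.65 and 11.87 in htz1Δ against 8.37, 8.25 and 8.05 in wild type, 2.33 higher (SE 0.57).

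In all, 9 of the 10 genes lay higher in htz1Δ with no overlap, where 32.1% of all 5498 probe sets did so, and 8 were over 2-fold higher, where 2.18% were. Their median difference was 1.56 and that of all probe sets -0.02. These shares come from the contrast that chose the genes, and nothing is read from them. The genes nearest to the 2-fold limit were LYS4 at 2.30-fold on the inside and LYS12 at 1.98-fold on the outside.

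The cultures of a strain differed unusually for these genes, whose SD within strains exceeded that of 93.4% (LYS14) to 99.9% (RTC2) of all probe sets, mostly through htz1Δ and swc5Δ. In htz1Δ, culture 3 was the highest and culture 1 the lowest for 10 of the 10 genes, an order that 12.7% of all probe sets had. Culture 1 lay over 2-fold below both others for 6 of the genes (LYS1, LYS2, LYS9, LYS20, RTC2 and CTP1), and only 7 probe sets of 5498, or 0.127%, did so. Culture 3 exceeded culture 1 by 9.77-fold for RTC2, 6.59-fold for CTP1, 5.17-fold for LYS1 and 4.65-fold for LYS20, and by 1.85-fold for LYS14. The mean differences depend on which cultures are averaged. Without culture 1 the difference from wild type would be 3.43 for LYS1, 3.43 for RTC2, 3.04 for CTP1 and 0.56 for LYS14, and without culture 3 it would be 2.25, 1.78, 1.68 and 0.11 for the same genes. Also without culture 3, LYS9 would lie 1.03, LYS2 0.85, LYS4 0.77 and LYS12 0.61 above wild type.

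Culture 1 of swc5Δ had the same genes high. LYS1 lay at 12.49 in it and at 8.65 and 8.35 in cultures 2 and 3, and LYS20 at 13.38 against 9.75 and 9.76. RTC2 lay at 11.20 against 6.25 and 6.23, a 31.1-fold excess over the mean of the other cultures and the largest of the 10 genes. LYS9 exceeded that mean by 7.47-fold, CTP1 by 6.85-fold, LYS4 by 4.22-fold, LYS2 by 4.02-fold, LYS12 by 3.05-fold, LYS21 by 3.04-fold and LYS14 by 2.16-fold. All 10 genes lay over 2-fold above both other swc5Δ cultures, as did 88 probe sets in all, 1.6% of those measured. The culture was as free of SWC5 RNA as its strain, at 2.32 against 2.90 and 2.70, and held HTZ1 at 11.31 against 11.53 and 11.48. What set this culture apart was not tested.

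**Figure D2:**
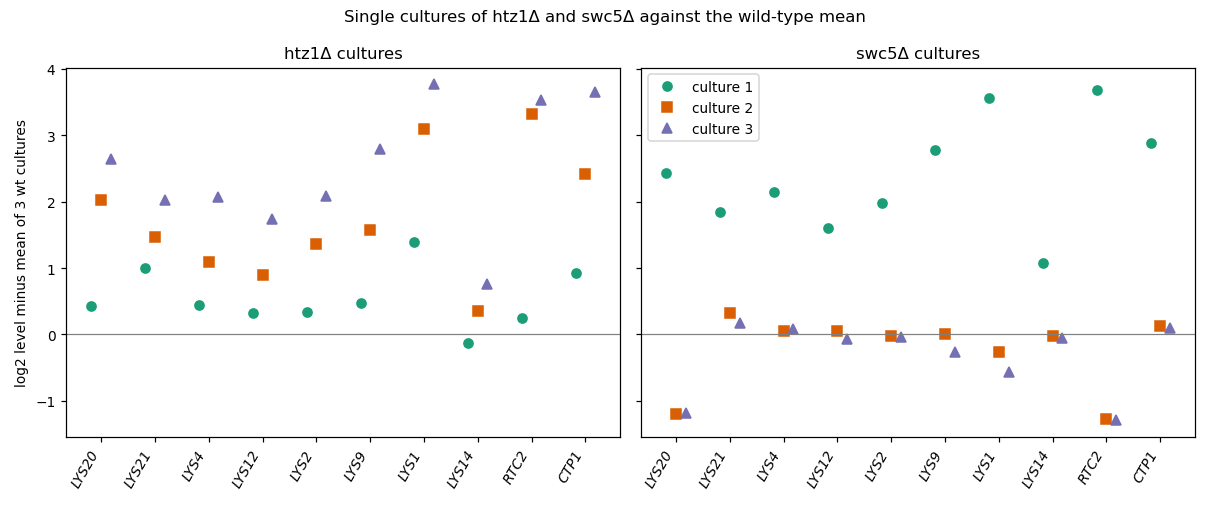
Log2 level of each gene minus the mean of the 3 wild-type cultures (vertical axis) in the 3 cultures of htz1Δ (left) and of swc5Δ (right), 1 point per culture. In htz1Δ culture 3 is the highest for all 10 genes, and in swc5Δ culture 1 stands 1.07 to 3.68 above the wild-type mean for the 10 genes while cultures 2 and 3 reach down to -1.29 for RTC2.

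Cultures 2 and 3 of swc5Δ had none of the 10 genes over 2-fold above the wild-type mean. LYS20 in its cultures 2 and 3 lay 1.19 below the wild-type mean, under every wild-type culture. With all 3 cultures the difference was 0.01 (adjusted p = 0.99). Culture 1 was set apart because these genes were high in it, so the pair is described without a test. RTC2 averaged 1.28 lower than wild type in the same pair of cultures, and LYS1 0.42 lower, in both cases with the pair below every wild-type culture. LYS21 went the other way, with 10.75 and 10.60 in the pair and no wild-type culture above 10.56.

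In the double mutants the htz1Δ level was gone. In htz1Δswr1Δ LYS1 lay at 8.66, 9.01 and 9.14, a difference of -2.74 from htz1Δ (SE 0.71), and CTP1 at 8.01, 8.47 and 8.66, a difference of -2.18 (SE 0.57). RTC2 lay at 6.34, 6.52 and 6.66 in htz1Δswr1Δ, the largest difference of all at -3.38 (SE 0.92). Since the htz1Δ cultures are on one side of each of these comparisons, they share the spread described above. Only htz1Δ also lacks BAR1, whose RNA lay at 2.65 to 3.22 there and at 11.55 to 12.32 in all other strains. The differences of htz1Δ from wild type and from the double mutants therefore cannot be told apart from an effect of that deletion.

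Of the 10 genes, 9 lay lower in htz1Δswr1Δ than in htz1Δ with no overlap (34.4% of all probe sets), 8 in htz1Δswc2Δ (24.3%) and 9 in htz1Δswc5Δ (22.2%). The median difference from htz1Δ was -1.42 in htz1Δswr1Δ, -1.32 in htz1Δswc2Δ and, over the 9 genes other than LYS2, -1.60 in htz1Δswc5Δ, and the median of all probe sets was -0.03, 0.00 and 0.01. LYS14 overlapped htz1Δ in all 3 double mutants, and LYS4 in htz1Δswc2Δ, where it reached 10.89. These 3 comparisons share the htz1Δ arrays with each other and with the comparison that chose the genes. For the genes other than LYS2, the htz1Δswc5Δ values cannot be told apart from an effect of its lys2Δ0 marker. This holds in every comparison with that strain.

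Whether the double mutants returned to wild type was tested for the 8 lysine genes, against the same wild-type cultures. A gene was called at an adjusted p under 0.05 (limma, Benjamini-Hochberg over all probe sets) and over 2-fold. None of the 8 was called in htz1Δswr1Δ (2.82% of all probe sets were), none in htz1Δswc2Δ (2.18%) and 1 in htz1Δswc5Δ (2.16%). That gene was LYS2, deleted in the strain, at 3.37, 3.94 and 2.95 against 10.61, 10.67 and 10.73 in wild type (-7.25, adjusted p = 4.3e-10). The intervals were wide, since limma pools the spread over all strains, of which htz1Δ and swc5Δ supplied 85.7% to 97.9% for these 10 genes. For LYS1 the difference of htz1Δswr1Δ from wild type was 0.01 with a 95% interval of -1.47 to 1.49.

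In the single mutants none of the 8 lysine genes was called in swr1Δ (2.8% of all probe sets were), in swc2Δ (2.2%) or in swc5Δ (2.87%). At 0.78 above wild type, LYS21 in swc5Δ stood at the edge (adjusted p = 0.050), with 12.28, 10.75 and 10.60 in swc5Δ against 10.56, 10.34 and 10.38 in wild type, and its cultures 2 and 3 alone averaged 0.25 above wild type. Between each double mutant and the single mutant of the same subunit none of the 8 was called for swr1 (0.0364% of probe sets) or swc2 (0.0364%), and only the deleted LYS2 for swc5 (1.02%). Between double mutants none was called in htz1Δswc2Δ against htz1Δswr1Δ (0.637%), and LYS2 alone in htz1Δswc5Δ against htz1Δswr1Δ (0.527%) and against htz1Δswc2Δ (0.0546%). At an unadjusted p under 0.05, LYS21 in swc5Δ was the only further one of the 8 in any of these 12 comparisons.

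The 18 arrays of the 6 strains other than htz1Δ and swc5Δ were also fitted alone, a choice made because those strains held most of the spread of these genes, so its intervals are narrower by that choice. Calls in this fit are at an adjusted p under 0.05 of any size, and apart from the deleted LYS2 none was over 2-fold. Of the 8 lysine genes 1, LYS21, was called in swc2Δ (37.4% of all probe sets were) and in htz1Δswc2Δ (35.9%), and LYS21 and the deleted LYS2 were in htz1Δswc5Δ (40.2%), which is no higher a share than that of all probe sets. None was called in htz1Δswr1Δ (32.7%) or swr1Δ (36.8%). LYS21 lay at 11.13, 10.80 and 11.09 in swc2Δ, at 11.20, 10.97 and 10.88 in htz1Δswc2Δ and at 10.86, 10.99 and 10.82 in htz1Δswc5Δ, against 10.56, 10.34 and 10.38 in wild type. The difference was 0.58 in swc2Δ (95% interval 0.36 to 0.80, adjusted p = 0.00051), 0.59 in htz1Δswc2Δ (0.37 to 0.80, adjusted p = 0.00048) and 0.46 in htz1Δswc5Δ (0.24 to 0.68, adjusted p = 0.0025, all limma). Over all 24 arrays the same differences had adjusted p-values of 0.14, 0.14 and 0.24.

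In the strains without SWR1 LYS21 did not pass the test. It lay at 10.54, 10.56 and 10.54 in htz1Δswr1Δ, 0.12 above wild type (-0.10 to 0.33, adjusted p = 0.41), and at 10.47, 10.72 and 10.71 in swr1Δ, 0.21 above it (-0.01 to 0.42, adjusted p = 0.13). The direct comparison gave 0.47 for htz1Δswc2Δ minus htz1Δswr1Δ (adjusted p = 0.0041) and 0.34 for htz1Δswc5Δ minus htz1Δswr1Δ (adjusted p = 0.025), calls that 24.2% and 23% of all probe sets had. Over all 24 arrays their adjusted p-values were 0.28 and 0.45. No value of LYS21 in htz1Δswc2Δ or htz1Δswc5Δ overlapped htz1Δswr1Δ.

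Apart from the deleted LYS2, none of the other lysine genes was called against wild type in this fit. Its intervals are narrower by the choice of strains and still leave room for differences, up to 0.64 for LYS9 in swc2Δ. LYS1 differed by 0.01 in htz1Δswr1Δ (-0.29 to 0.32) and 0.02 in htz1Δswc2Δ (-0.29 to 0.33), and by -0.01 in htz1Δswc5Δ (-0.32 to 0.30). LYS12 differed by 0.02, 0.12 and 0.10 in the same double mutants, with bounds of -0.14 and 0.29 at the widest. LYS20, the partner isozyme of LYS21, differed by -0.24 in htz1Δswr1Δ (-0.64 to 0.15) and by -0.37 in swr1Δ (-0.77 to 0.02). LYS4 in swc2Δ was 0.30 higher (0.04 to 0.56, adjusted p = 0.067) with no overlap.

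RTC2 lay below wild type in all 5 of these mutants. It was at 6.55, 6.57 and 6.62 in swr1Δ, 0.94 below wild type, and at 6.83, 6.90 and 6.67 in swc2Δ, 0.72 below, with wild type at 7.75, 7.41 and 7.40. In htz1Δswr1Δ it was 1.01 below wild type, in htz1Δswc5Δ 0.83 and in htz1Δswc2Δ 0.74. No culture of the 5 strains reached the lowest wild-type culture. The share of all probe sets lying below wild type in this way was not counted. In the fit of 18 arrays 32.7% to 40.2% of all probe sets were called against wild type in these strains, in either direction. The RTC2 values are descriptions, since RTC2 was chosen for its pattern over the arrays. CTP1 stayed within 0.30 of wild type in the same strains and overlapped it in each.

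**Figure D3:**
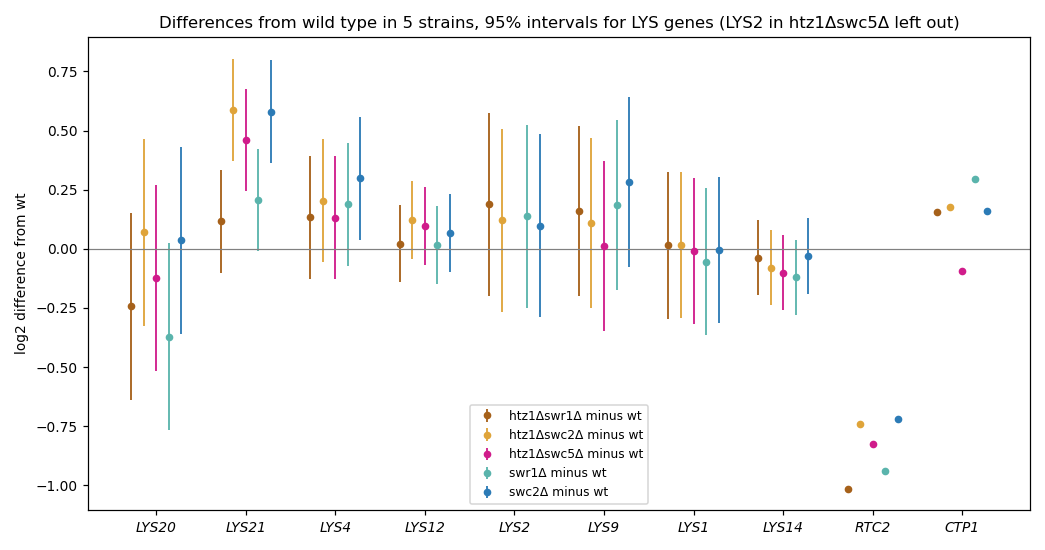
Log2 difference from wild type (vertical axis) of each gene in 3 double mutants, swr1Δ and swc2Δ, from the 18 arrays of 6 strains. Bars are 95% intervals of the limma fit for the lysine genes; RTC2 and CTP1 are drawn without. LYS21 lies above 0 in swc2Δ, htz1Δswc2Δ and htz1Δswc5Δ, and RTC2 lies 0.72 to 1.01 below 0 in all 5.

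Ordered by the median of their cultures, the strains had htz1Δ first for all 10 genes. Its cultures lay apart from the next strain for 8 of them, and overlapped it for LYS4 and LYS14. The place of htz1Δ was largely set by the choice of the genes, so nothing is read from it. The share of all probe sets with such an order was not counted. Below htz1Δ every strain overlapped the next for 8 of the genes, with all 3 cultures of each strain counted. The exceptions were LYS2, where htz1Δswc5Δ lay apart at the bottom, and RTC2, where wild type came second and lay apart from swc2Δ beneath it. Wild type came last for LYS4, LYS12 and LYS21, and swc5Δ for LYS1, LYS20 and RTC2. For LYS1, LYS20, LYS21 and RTC2 the overlap of swc5Δ with the strain above it came from swc5Δ culture 1 alone. Its cultures 2 and 3 lay below that strain.

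The genes followed each other closely. Over the 24 arrays (21 for pairs with LYS2, without htz1Δswc5Δ) the 45 pairs correlated at 0.80 to 0.98, with a median of 0.93. The arrays share their strains and cultures, and the few high cultures weigh most. Over the 18 arrays of the other 6 strains the median was 0.44, with pairs from -0.32 to 0.80. There the 9 pairs of RTC2 had a median of 0.03 and those of LYS21 one of 0.18. The 21 pairs of the 7 enzyme genes, LYS21 among them, had a median of 0.52 there and 0.93 over the 24 arrays.

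Outside the 10 genes, the pattern most like the mean of 6 enzyme genes (LYS1, LYS4, LYS9, LYS12, LYS20 and LYS21) over 24 arrays was that of ARG7, an arginine synthesis gene, with r = 0.96. ALP1, a plasma membrane permease for basic amino acids, followed with 0.93, then TRP3 (0.91), ARG2 (0.91), ARG8 (0.90), ARO8 (0.90), ARG4 (0.89), ILV6 (0.89), GGC1 (0.89) and RIB5 (0.88). CTP1 had 0.98 and RTC2 0.95. The few high cultures weigh most in these values, and rank correlations over the same arrays were lower. They were 0.89 for ARG7, 0.70 for CTP1, 0.68 for RTC2, 0.50 for ALP1, 0.33 for ARG4 and 0.29 for GGC1. When each strain was centred on its mean, QDR3 (0.95), ODC2 (0.95), YIL165C (0.94), ARG7 (0.92), PEX11 (0.92), ISA1 (0.92), YSW1 (0.92), ARO3 (0.91), ALP1 (0.90) and TRP3 (0.90) led. The rank correlations of these genes were lower here too, from 0.28 for ISA1 and 0.31 for YSW1 to 0.90 for ARG7. YSW1 is the gene next to RTC2 on its chromosome. The genes most like LYS14 alone were QDR3 (0.87), ODC2 (0.87), ARG7 (0.86), PEX21 (0.86), ORT1 (0.86), YIL165C (0.86), HIS5 (0.86), TRP3 (0.86), SAM4 (0.85) and GGC1 (0.85). Their rank correlations with LYS14 ran from 0.23 for SAM4 to 0.53 for PEX21.

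ARG7 lay at 10.78, 11.50 and 11.26 in htz1Δ, and at 9.98, 10.02 and 9.89 in wild type. In swc5Δ it was 11.77 in culture 1 and 10.08 and 9.88 in the others. ALP1 lay at 6.15, 6.67 and 7.19 in htz1Δ and at 5.56, 5.47 and 5.71 in wild type, and at 7.37, 5.46 and 5.45 in the swc5Δ cultures. Both thus had the same 4 cultures above all others, and ALP1 the same order among the htz1Δ cultures as the lysine genes.

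**Figure D4:**
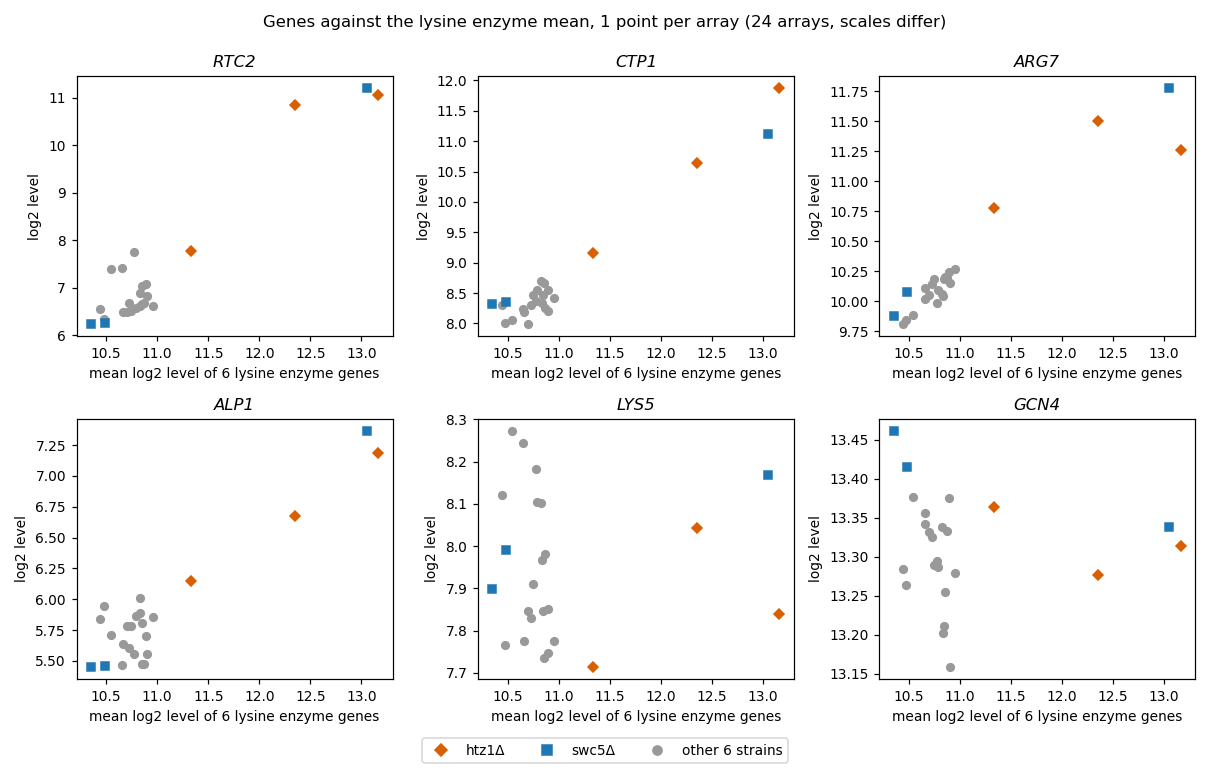
Log2 level of RTC2, CTP1, ARG7, ALP1, LYS5 and GCN4 (vertical axes, which differ) against the mean log2 level of 6 lysine enzyme genes (horizontal axis), 1 point per array. CTP1, ARG7 and ALP1 are high in the 3 htz1Δ cultures and 1 swc5Δ culture at the right. RTC2 is high in the same cultures except htz1Δ culture 1, where it lies at 7.77, near wild type. GCN4 stays between 13.16 and 13.46 in all 24 arrays.

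Related genes outside the 10 were read from lists. The lists were chosen with earlier results of these data known, so their calls and p-values in htz1Δ are descriptions. They are counted at an adjusted p under 0.05 of any size in htz1Δ against wild type (limma), where 24.3% of all probe sets rose and 27% fell. Of 5 other genes of lysine synthesis, ARO8, a transaminase that also acts on aminoadipate, rose by 0.38 (SE 0.12, adjusted p = 0.011). ODC1, a carrier of oxodicarboxylates out of mitochondria, changed by -0.55 (SE 0.08, adjusted p = 3e-05), and LYS5 by -0.37 (SE 0.08, adjusted p = 0.0011). ODC2, which does the same transport as ODC1, lay at 11.12, 11.64 and 11.90 in htz1Δ and at 11.45, 11.37 and 11.41 in wild type, and at 12.59 in swc5Δ culture 1 against 11.03 and 10.93 in its other cultures.

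Among 8 genes of basic amino acid transport 1 rose, ALP1 (1.09, SE 0.35, adjusted p = 0.013), and 3 fell, VBA1 (-0.32, SE 0.08) and the vacuolar YPQ2 (-0.60, SE 0.12) and YPQ1 (-0.37, SE 0.11), which belong to the same family as RTC2. LYP1, the plasma membrane lysine permease, lay at 12.41, 12.63 and 12.82 in htz1Δ and at 12.43, 12.46 and 12.46 in wild type. Among 8 mitochondrial carriers other than CTP1, the phosphate carrier MIR1 (0.81, SE 0.08) and the oxaloacetate carrier OAC1 (0.70, SE 0.25) rose. The carnitine carrier CRC1 (-1.10, SE 0.24) and the dicarboxylate carrier DIC1 (-1.07, SE 0.20) fell. Of 11 genes that supply citrate and 2-oxoglutarate 3 rose, the mitochondrial isocitrate dehydrogenase IDP1 (0.98, SE 0.16), the citrate synthase CIT1 (0.69, SE 0.20) and the pyruvate carboxylase PYC1 (0.61, SE 0.18), and the cytosolic IDP2 fell (-0.68, SE 0.09).

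GCN4 RNA did not follow the lysine genes (r = -0.07 over 24 arrays), and the amount and activity of the Gcn4 protein were not measured. It lay at 13.36, 13.28 and 13.31 in htz1Δ and at 13.29, 13.36 and 13.38 in wild type, and at 13.34 in swc5Δ culture 1 against 13.41 and 13.46 in cultures 2 and 3. Of the 7 regulators listed 3 rose, RTG3 (0.48, SE 0.10), MKS1 (0.43, SE 0.05) and RTG1 (0.31, SE 0.11), of which Rtg1 and Rtg3 activate genes of 2-oxoglutarate supply when mitochondria are impaired and Mks1 restrains that response.

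Of 7 measured genes of arginine synthesis 6 rose in htz1Δ, all over 2-fold, among them ARG3 (3.54, SE 0.86), ARG8 (1.80, SE 0.52) and ARG4 (1.50, SE 0.34), and ARG1 lay 1.69 higher (adjusted p = 0.055). This list too was chosen with earlier results known, so these calls describe the genes and do not test them. In swc5Δ culture 1 all 7 lay over 2-fold above both other cultures, as the 10 lysine-related genes did, while 3 of 41 genes of other amino acid synthesis and 3 of 11 of citrate and 2-oxoglutarate supply did so. The cultures of htz1Δ ranked otherwise, since 7 of 7 arginine genes were highest in culture 2 and 10 of 10 lysine-related genes in culture 3. Of all 5498 probe sets 2121 were highest in culture 2 and 1417 in culture 3. The genes of a list share the same 3 cultures, so they are not independent counts. In the 3 double mutants none of the 7 arginine genes passed the test against wild type, and 0 of 7 did so at an unadjusted p under 0.05. Of all probe sets 11% rose in htz1Δswr1Δ, 15% in htz1Δswc2Δ and 17.8% in htz1Δswc5Δ, and 18%, 16.3% and 18.8% fell. The spread was pooled over all strains, so small differences could be missed. ARG2 lay at 8.47, 8.48 and 8.41 in htz1Δswc5Δ and at 8.14, 8.17 and 8.20 in wild type. ARG4 lay at 11.50, 11.18 and 11.52 in htz1Δswc2Δ and at 11.57, 11.69 and 11.71 in wild type. Among 41 genes of other amino acid synthesis 24 rose and 2 fell in htz1Δ, with a median of 0.32.

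The genes lie on several chromosomes, and by gene order LYS1 is 8 genes and CTP1 13 genes from a chromosome end. Among their 16 measured neighbours the largest differences in htz1Δ were those of a pair of genes named after their values were seen. INH1 beside LYS20 rose by 1.23 (SE 0.12, adjusted p = 2.7e-07) and BRE5 beside LYS9 by 0.78 (SE 0.11, adjusted p = 1.6e-05). In swc5Δ culture 1 INH1 differed from the other cultures by 0.05 and BRE5 by -0.17. YSW1 beside RTC2 had an excess of 2.20 there and differed by 0.12 between htz1Δ and wild type (SE 0.41, adjusted p = 0.83). STF1 beside LYS21 lay higher in both, by 0.54 in htz1Δ than in wild type (SE 0.22, adjusted p = 0.05) and by 0.93 in swc5Δ culture 1 than in the other cultures.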

How the data were processed

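The authors scanned the arrays with GCOS, summarised them by RMA and deposited log2 values, 1 column per array. Which arrays were normalized together is not given in the sources used here. Of 10928 probe sets, 5498 pair with exactly 1 yeast gene in the array annotation and were tested. The 9 arrays of swr1Δ, swc2Δ and swc5Δ were mapped by rank, over all probe sets, to the mean distribution of the other 15. The strains were compared with limma 3.58.1 in R 4.3.3 with the data.table package (version 1.17.8; 1 mean per strain, eBayes, 16 residual degrees of freedom, prior 2.81), adjusted by Benjamini-Hochberg within a comparison. The fit was checked on simulated data. Adjusted p-values across all probe sets come from that fit unless another is named. SDs and SEs are of 3 cultures a strain, and their number limits the precision.

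The members and lists were chosen with earlier results of these data known. All 10 members are named. Of each list the genes with the largest differences past the threshold and those whose role is described are named, and of the likeness rankings the first 10 genes. Neighbours were taken from the order of genes in the reference annotation, and no coordinates or sequences were used. Alternatives were other scalings, a filter on dim probe sets, moderated variance with an intensity trend, only the arrays compared, a replicate block and each array left out.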

Additional observations from a re-analysis of the deposited data

Results flagged for a closer look

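For LYS1, LYS4, LYS9, LYS12, LYS21, RTC2 and CTP1 the change in a subunit mutant (double minus single mutant) minus the change in wild type (htz1Δ minus wild type) passed an adjusted p of 0.05, in 13 values. They are listed for that alone. Each contains htz1Δ minus wild type, which chose the genes, so that the negative sign was largely set by the choice, and nothing is read from them. Of all probe sets 33.3% passed with swr1, 31.1% with swc2 and 35.1% with swc5.

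With swr1, swc2 and swc5 the difference of changes was -2.68, -2.73 and -3.67 for LYS1, -1.59, -1.49 and -1.82 for LYS21 and -2.47, -2.32 and -3.46 for CTP1. With swc5 alone it passed for LYS4 (-1.83), LYS9 (-2.44), LYS12 (-1.42) and RTC2 (-3.57). LYS2 with swc5 passed too (-9.16) and is not among the 13 values, since htz1Δswc5Δ lacks that gene.

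The values rest on single cultures. Without htz1Δ culture 3, 8 of the 13 no longer passed, those of LYS4 (-1.40), LYS9 (-1.85), LYS12 (-1.04) and RTC2 (-2.99) with swc5 and those of LYS1 (-2.18 and -2.22) and CTP1 (-1.81 and -1.66) with swr1 and swc2. Without swc5Δ culture 1 the swc5 values were -2.34 for LYS1, -1.14 for LYS4, -1.47 for LYS9, -0.88 for LYS12, -1.29 for LYS21, -1.92 for RTC2 and -2.54 for CTP1. Of the 13, LYS1 with swr1 and swc2 passed in only 4 and 5 of the 24 fits that left out an array, and 5 passed in all 24, those of LYS21 with each subunit and of LYS1 and CTP1 with swc5. With only the arrays compared 8 of the 13 passed.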

How the results depend on the processing

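The settings tried were rank mapping over the tested probe sets, the values as deposited, median centring, quantile normalization, leaving out the dimmest 25%, an intensity trend with robust eBayes, only the arrays compared, a replicate block, each of the 24 arrays left out, and, added after seeing the data, the 6 strains fitted alone. Residuals of cultures with the same replicate number correlated at a median of 0.09 (-0.37 to 0.62). Those with different numbers had a median of -0.04 (-0.51 to 0.36). These medians run over all strains and cannot tell whether the numbers pair the cultures of some of them. With the number as a block 8 genes were over 2-fold higher in htz1Δ than in wild type, as without it, and no lysine gene's call changed in the 12 comparisons tested. Of the 13 differences of changes listed above, those of LYS1 with swr1 and with swc2 no longer passed 0.05 with the block.

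In swc5Δ against wild type 0 of 8 lysine genes were called, but 2 (LYS4 and LYS21) with the values as deposited, and 0 to 1 over the fits that leave out an array. The LYS20 difference, 0.01, ranged from -1.19 without swc5Δ culture 1, which had been set apart by these genes, to 0.62 without culture 2, and without culture 2 or 3 LYS21 passed 2-fold (1.01 and 1.09). The number of genes over 2-fold lower in htz1Δswr1Δ than in htz1Δ, 8, ranged from 5 to 9 over these fits, with 5 without htz1Δ culture 3. The remaining counts of calls in the other 14 comparisons stayed within 1.5 times. Values as deposited keep the level offsets of swr1Δ, swc2Δ and swc5Δ, and the cause of other changes was not tested. LYS21 in swc5Δ moved across 0.05 in several settings at 0.78 (adjusted p = 0.049 with median centring). Leaving out the dimmest 25% removed RTC2. With 3 cultures a strain, uneven in htz1Δ and swc5Δ, small differences of the lysine genes are hard to detect over all arrays.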
